A study of Mus musculus with 6 samples.

Results

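The thioredoxin system, in its cytosolic and its mitochondrial form, was examined by the transcripts of 6 genes among 22180 named genes measured in RET cells, a mouse melanoma line. Each gene was represented by a transcript cluster that the platform annotation pairs with exactly 1 symbol, and all 6 members were found with 1 such cluster each. The members were chosen on earlier results of the same arrays, namely the lower Txn2 signal in cells with the Angpt2 hairpin, so their group differences are given as a description without a test.

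The silenced cells carried Angpt2 shRNA-1, a single short hairpin RNA against Angpt2, the gene of the angiogenic ligand angiopoietin-2 (3 cultures). The control cells carried a non-targeting shRNA, and their titles also bear the word GFP, which the labels do not explain (3 cultures). Both sets are the RET line with strain C57BL\6, received the same medium with serum, antibiotics and non-essential amino acids, and were harvested 24 h after equal seeding, each culture on its own Affymetrix Mouse Gene 2.0 ST array. A single hairpin was profiled and Angpt2 was not restored, so loss of Angpt2, off-target action of the hairpin and earlier differences between the transduced lines cannot be told apart.

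Thioredoxins are small proteins whose paired cysteines reduce disulfides in other proteins, and thioredoxin reductases recharge them with electrons from NADPH. The cytosol and nucleus use Txn1 and Txnrd1, while the mitochondrial matrix has its own copies, Txn2 and Txnrd2, which serve the peroxidase Prdx3 in the removal of hydrogen peroxide. Txnip binds reduced thioredoxin and blocks it, and its transcription follows glucose supply through the MondoA and Mlx factors. Both reductases are selenoproteins, and Txnrd1 is a known target of the oxidative stress factor NRF2 in mouse and human cells.

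Array medians lay between 74.5 and 76.2 intensity units. All 7 markers of the melanocyte lineage were bright, from 1387 to 9651, while 13 measured markers of leukocytes, endothelium, fibroblasts and epithelium lay between 46.1 and 174.5. Angpt2 intensity was 100.2, 122 and 122 on Angpt2 shRNA-1 replicates 1, 2 and 3, against 195, 372 and 326 on control replicates 1, 2 and 3. Control replicate 1 stood apart from the other arrays, with 100 genes at least 1.5 times as bright as on every other array, against 3 to 10 genes for each of the other 5. What sets that array apart was not tested.

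The promoter windows of 4 members are shown because the results turn on these genes. Txn2 separates the groups, Txnip stands out on 1 control array, and Txn1 and Txnrd2 vary together. The windows run from 250 bases before to 50 bases after the annotated start and come from RefSeq on GRCm38.p6, in which all 6 members had a window. Capitals mark the letters GGGCGG (a GC box), CCAAT, TGACNNNGC (the core of the antioxidant response element) and a pair of E-box-like elements spaced as in carbohydrate response elements, each on either strand. The motifs were picked after the windows had been read.
Txn2 (chr15:77928945-77929244, minus strand): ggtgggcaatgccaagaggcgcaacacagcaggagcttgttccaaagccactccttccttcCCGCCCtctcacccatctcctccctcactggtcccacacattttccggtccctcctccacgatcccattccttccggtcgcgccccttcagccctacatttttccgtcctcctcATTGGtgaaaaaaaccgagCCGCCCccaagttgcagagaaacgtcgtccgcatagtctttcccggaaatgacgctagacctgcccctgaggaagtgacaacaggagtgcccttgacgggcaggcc
Txnip (chr3:96557707-96558006, plus strand): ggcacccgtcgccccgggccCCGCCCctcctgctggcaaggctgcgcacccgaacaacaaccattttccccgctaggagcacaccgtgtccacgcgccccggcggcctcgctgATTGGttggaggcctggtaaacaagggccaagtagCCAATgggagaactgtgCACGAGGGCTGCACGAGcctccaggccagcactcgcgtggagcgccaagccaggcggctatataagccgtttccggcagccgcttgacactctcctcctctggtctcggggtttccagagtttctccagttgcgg
Txn1 (chr4:57956362-57956661, minus strand): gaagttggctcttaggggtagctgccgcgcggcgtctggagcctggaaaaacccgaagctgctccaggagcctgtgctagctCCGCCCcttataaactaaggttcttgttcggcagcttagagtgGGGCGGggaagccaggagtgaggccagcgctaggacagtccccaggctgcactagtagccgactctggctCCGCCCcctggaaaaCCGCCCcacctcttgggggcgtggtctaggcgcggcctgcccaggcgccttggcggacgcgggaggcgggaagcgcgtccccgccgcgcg
Txnrd2 (chr16:18426167-18426466, plus strand): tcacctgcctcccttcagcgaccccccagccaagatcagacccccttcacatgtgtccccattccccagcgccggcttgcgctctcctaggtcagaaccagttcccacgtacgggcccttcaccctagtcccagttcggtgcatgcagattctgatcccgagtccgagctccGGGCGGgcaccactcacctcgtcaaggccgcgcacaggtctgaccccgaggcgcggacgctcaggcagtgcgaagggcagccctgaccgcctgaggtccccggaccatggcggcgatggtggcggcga

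The paired E-box-like motif was found in the Txnip window, with its first base 85 bases before the start, and in 16 of 32851 windows of the table (0.0487%). Since its letters were picked after the windows had been read, nothing is read from this rarity. The antioxidant response core, which 12.4% of windows hold, lay 92 bases before the second of 3 annotated Txnrd1 starts. GC boxes were present in a window of each of the 6 members, 4 of them in that of Txn1, and in 35.7% of all windows. CCAAT was present in the Txn2, Txnip and second Txnrd1 windows and in 37.4% of all. A match of letters is a description and not a binding site.

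Txn2, the mitochondrial thioredoxin, was the member that separated the groups. Its intensity was 209.6, 352 and 310.1 on Angpt2 shRNA-1 replicates 1, 2 and 3, against 441, 459 and 405 on control replicates 1, 2 and 3. Every Angpt2 shRNA-1 array lay below every control array, and the lowest value was that of Angpt2 shRNA-1 replicate 1. The mean was 291 ± 73.3 in Angpt2 shRNA-1 cells and 435 ± 27.6 in control cells (SD, n = 3 arrays each). On the log2 scale the difference was -0.61 (SE 0.17, 95% interval -0.9996 to -0.23), or 1.53-fold lower. Since the members were chosen for this same difference, its size may be overstated and the interval is not a test.

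The size of the Txn2 difference was uneven between replicates. Within replicate numbers 1, 2 and 3 it was -1.07, -0.38 and -0.38 on the log2 scale, and without Angpt2 shRNA-1 replicate 1 it was -0.39. The control arrays were close to each other, with a log2 SD of 0.09, while the Angpt2 shRNA-1 arrays had a log2 SD of 0.39, larger than that of 98.4% of the genes brighter than the median gene. In bulk RNA, a lower level in every cell and a smaller share of cells that express the gene cannot be told apart.

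**Figure D1:**
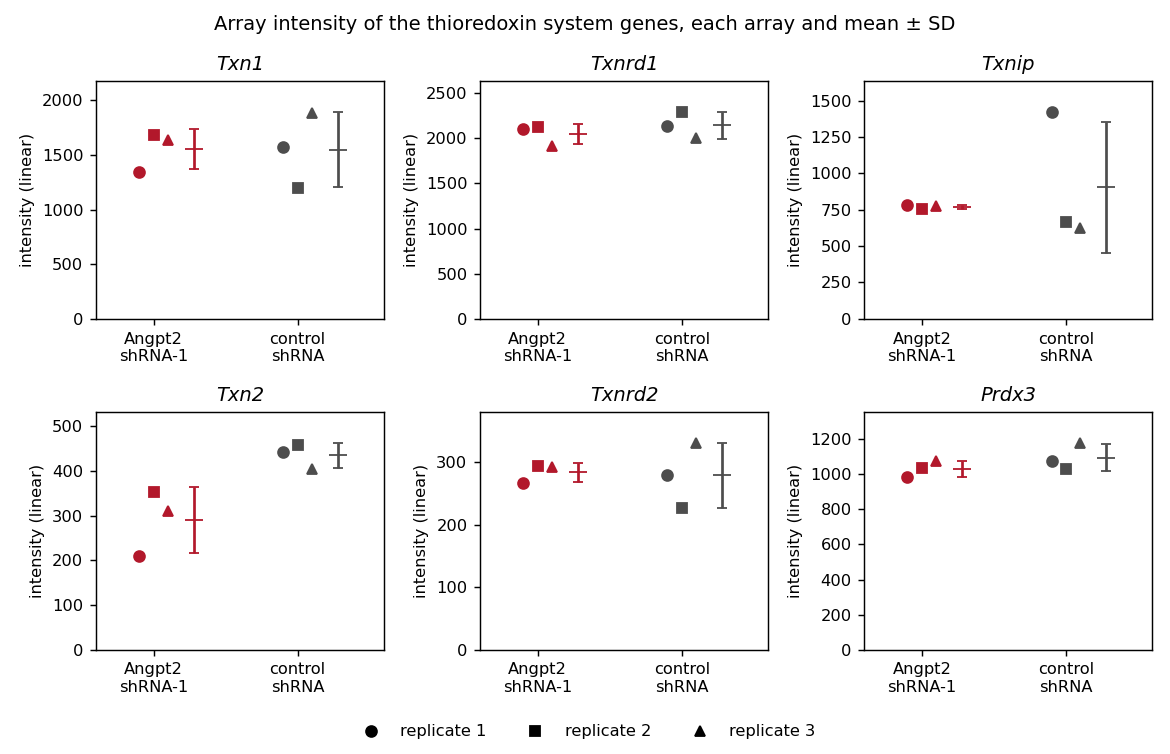
Intensity on a linear scale (y axis, from 0) of each of the 6 genes on the 3 Angpt2 shRNA-1 arrays (left, red) and the 3 control arrays (right, grey), with symbols for replicate numbers and bars for mean ± SD (n = 3). The Txn2 groups do not overlap, and Txnip at 1422 on control replicate 1 is far above its other 5 values, which lie between 623 and 779.

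Txnrd2, the reductase that recharges Txn2, overlapped between the groups. Its intensity was 267, 294 and 292 on Angpt2 shRNA-1 replicates 1, 2 and 3, against 279, 228 and 331 on control replicates 1, 2 and 3. The Angpt2 shRNA-1 values lay inside the control range, and the log2 difference was 0.04 (SE 0.13, 95% interval -0.26 to 0.34). Without control replicate 2, the lowest array, it was -0.10.

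Prdx3, the matrix peroxidase that takes electrons from Txn2, had intensities of 984, 1037 and 1073 on Angpt2 shRNA-1 replicates 1, 2 and 3. Control replicates 1, 2 and 3 were at 1075, 1027 and 1178. The groups overlapped, and the log2 difference was -0.08 (SE 0.09, 95% interval -0.28 to 0.12).

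Among the cytosolic members, the thioredoxin Txn1 was at 1347, 1685 and 1641 on Angpt2 shRNA-1 replicates 1, 2 and 3, against 1570.5, 1197 and 1882 on control replicates 1, 2 and 3. The controls spanned more than the Angpt2 shRNA-1 arrays, from the lowest to the highest of the 6. The log2 difference was 0.02 (SE 0.16, 95% interval -0.34 to 0.39), and it ranged from -0.15 without control replicate 2 to 0.18 without control replicate 3.

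Txnrd1, the cytosolic reductase, was among the steadiest of the 6 genes. It was at 2102, 2122 and 1916 on Angpt2 shRNA-1 replicates 1, 2 and 3, against 2135, 2290.0 and 1999.7 on control replicates 1, 2 and 3. Highest and lowest array differed 1.20-fold, as for Prdx3, and the groups overlapped. The log2 difference was -0.06 (SE 0.09, 95% interval -0.27 to 0.14), negative within each replicate number at -0.02, -0.11 and -0.06.

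Txnip, the inhibitor, was at 779, 753 and 777 on Angpt2 shRNA-1 replicates 1, 2 and 3, against 1422, 669 and 623 on control replicates 1, 2 and 3. The Angpt2 shRNA-1 arrays were nearly equal, with a log2 SD of 0.03, a value that ranked at percentile 6.24 among genes brighter than the median gene. Control arrays had a log2 SD of 0.66, higher than in 99.2% of those genes, and control replicate 1 was 1.82 times as bright as the next array. The log2 difference was -0.13 (SE 0.26, 95% interval -0.72 to 0.47). Without control replicate 1 it was 0.25, and without control replicates 2 and 3, each left out alone, it was -0.29 and -0.34. A further cluster, annotated to Txnip together with the noncoding RNA gene Gm15441 that overlaps it, was dim, at 85.9, 96.3 and 93.5 on Angpt2 shRNA-1 replicates 1, 2 and 3, against 87.2, 85.5 and 84.6 on control replicates 1, 2 and 3.

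**Figure D2:**
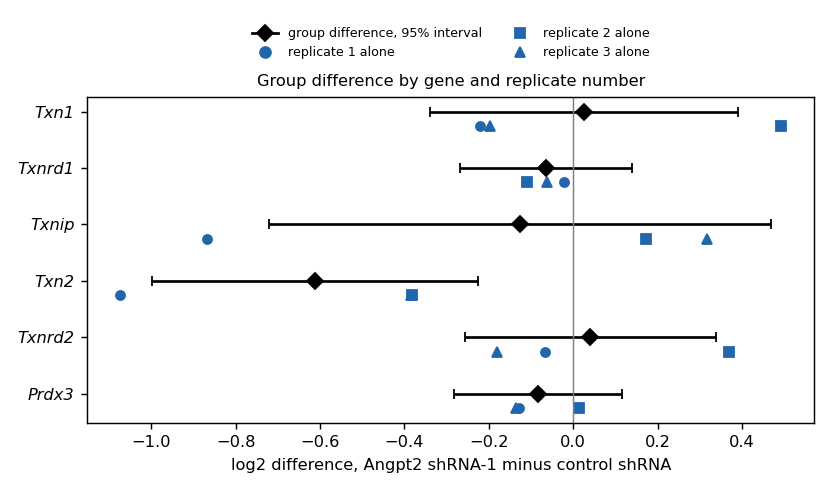
Log2 difference of Angpt2 shRNA-1 minus control arrays (x axis) for each gene (rows), as the group difference with its 95% interval (black) and within each replicate number (blue, 1 array per group). Txn2 (-1.07, -0.38 and -0.38) and Txnrd1 (-0.02, -0.11 and -0.06) are negative in all 3 replicates, while Txn1, Txnip, Txnrd2 and Prdx3 have replicates on both sides of 0.

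In the limma fit across all 22180 genes, 0 of the 6 members were called at an adjusted p of 0.05, and so was 0% of all genes, with 835 genes at an unadjusted p under 0.05. With the replicate number as a block 0 members were called, against 0.00902% of all genes, which were Angpt2 and Pld4. Txn2 was 1 of 6 members with all Angpt2 shRNA-1 arrays below all control arrays, as were 5.48% of all genes, and 0 members lay wholly above, as did 3.53%. Since the same contrast chose the members, nothing is read from these counts. Among the members 4 had negative log2 differences and 2 positive ones, with a median of -0.07 over the 6, beside -0.01 over all genes.

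The comparison of compartments rested on Txn2. Each gene was centred on its mean over the 6 arrays, so that levels of different probes were not set against each other. The mean of Txn2, Txnrd2 and Prdx3 minus the mean of Txn1 and Txnrd1 was -0.22, -0.06 and -0.02 on Angpt2 shRNA-1 replicates 1, 2 and 3, against 0.08, 0.13 and 0.09 on control replicates 1, 2 and 3 (log2 units). All 3 Angpt2 shRNA-1 arrays lay below all 3 controls. The difference between group means was -0.20, from -0.10 ± 0.10 in Angpt2 shRNA-1 cells and 0.10 ± 0.03 in control cells (SD, n = 3 each).

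Without Txn2 this difference was -0.00104, with values of 0.00, -0.06 and 0.06 on Angpt2 shRNA-1 replicates 1, 2 and 3, against -0.02, -0.06 and 0.08 on control replicates 1, 2 and 3. The 2 reductases gave the same picture, since Txnrd2 relative to Txnrd1 was at -0.08, 0.05 and 0.19 on Angpt2 shRNA-1 arrays and at -0.03, -0.43 and 0.31 on control arrays. Txn2 relative to its own reductase and to its own client did separate the groups. The members were chosen for the lower Txn2 signal, and the group differences of Txnrd2 and Prdx3 were only 0.04 and -0.08. These 2 ratios therefore largely restate the Txn2 difference. Txnrd2 relative to Txn2 was at 0.67, 0.06 and 0.24 on Angpt2 shRNA-1 arrays, above -0.33, -0.68 and 0.04 on control arrays. Prdx3 relative to Txn2 was at 0.64, -0.04 and 0.20 on Angpt2 shRNA-1 arrays, above -0.31, -0.43 and -0.05 on control arrays.

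**Figure D3:**
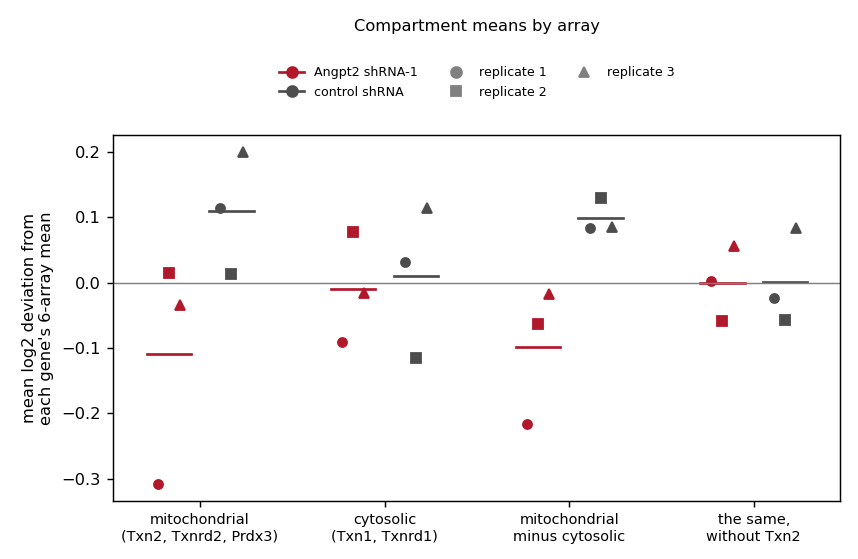
Mean log2 deviation from each gene's 6-array mean (y axis) for the 3 mitochondrial genes, the 2 cytosolic genes, their difference, and the difference without Txn2, on Angpt2 shRNA-1 arrays (red, left) and control arrays (grey, right), with group means as lines. The difference separates the groups with Txn2 (-0.20 between means) and not without it (-0.00104).

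Across the 6 cultures, the pair of members that varied most alike joined a cytosolic and a mitochondrial gene. The cytosolic Txn1 and the mitochondrial reductase Txnrd2 had the same order on all 6 arrays, lowest on control replicate 2 and highest on control replicate 3. Part of that order is a near tie, since Txnrd2 was at 293.8 and 292.3 on Angpt2 shRNA-1 replicates 2 and 3. The rank correlation below and its p-value depend on this tie. Their log2 values correlated with Pearson's r = 0.97 and Spearman's rho = 1.00 over n = 6 arrays (exact permutation p = 0.00139 and 0.00278, two-sided; Benjamini-Hochberg adjusted p = 0.0208 and 0.0417 over 15 pairs of members). Without Angpt2 shRNA-1 replicate 1 and control replicate 2, the arrays farthest from the median of Txn1, r was 0.99. Among 11089 genes brighter than the median gene, Txnrd2 was number 10 by its correlation with Txn1.

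The arrays span both groups, and 3 arrays per group are too few for a value within each. The remaining 14 pairs did not pass after adjustment. Prdx3 had r = 0.77 with Txn1 (rho = 0.71, exact permutation p = 0.0694 and 0.136, adjusted 0.325 and 0.510) and r = 0.72 with Txnrd2 (rho = 0.71, exact permutation p = 0.108 and 0.136, adjusted 0.325 and 0.510). Txnrd1 ran opposite, with r = -0.78 against Txnrd2 (rho = -0.60, exact permutation p = 0.0847 and 0.242, adjusted 0.325 and 0.604) and r = -0.73 against Txn1 (rho = -0.60, exact permutation p = 0.0944 and 0.242, adjusted 0.325 and 0.604). Without the 2 farthest arrays the 4 values of r were 0.79, 0.67, -0.83 and -0.32. Txn2 and its reductase Txnrd2 had r = -0.07 (rho = -0.20, exact permutation p = 0.893 and 0.714, adjusted 0.957 and 0.765), and -0.60 without the 2 arrays farthest from the Txn2 median.

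**Figure D4:**
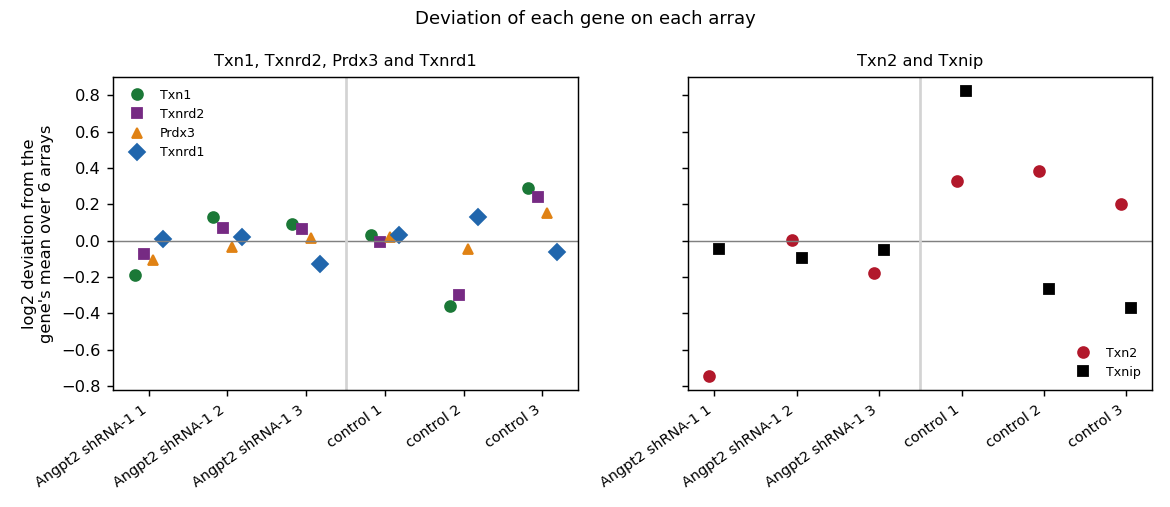
Log2 deviation of each gene from its mean over the 6 arrays (y axis) on each array (x axis, Angpt2 shRNA-1 left of control), with 4 genes in the left panel and 2 in the right. Txn1 and Txnrd2 sit together on every array, from -0.36 and -0.30 on control replicate 2 to 0.29 and 0.24 on control replicate 3, and Txnip reaches 0.82 on control replicate 1.

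By likeness of pattern, taken as Pearson's r over the 6 arrays among 11084 other genes brighter than the median gene, the genes nearest to Txn2 were Hspb6 (r = 0.97), Atp11a (0.97) and Kat7 (0.96). Nearest to Txn1 were Rpa3, Bnip1 and Psmd6 (0.99, 0.99 and 0.98), and nearest to Txnrd2 were Qrsl1, Pop5 and Hrct1 (0.99, 0.99 and 0.98). Txnrd1 was most like Tmem69, Zfp251 and Slc18b1 (0.99 each), and Prdx3 most like Slc35a3, Znrf1 and Prim2 (0.99 each). Txnip was most like Cog8, Itgb5 and Med12 (0.99 each), which were also brightest on control replicate 1. They were at 241, 628 and 422 there, against at most 190, 474 and 371 on the other arrays. For Txnip these values were 1422 and 779, so the likeness is one of pattern and not of size. With 6 arrays and this many genes, values near 1 arise for every member.

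None of 76 related genes measured, in 8 lists, passed the limma test over all genes, with or without the block. The lists were chosen with earlier results of these data known, so their counts of groups that did not overlap are a description. Thioredoxin-fold relatives were balanced, with 11 of 19 positive and a median log2 difference of 0.01. Txndc11, a membrane-bound relative of the endoplasmic reticulum, was at 0.23 (SE 0.12), Txndc17, a cytosolic thioredoxin-related protein, at 0.12 (SE 0.11), and the dim Txndc2, the sperm thioredoxin, at -0.19 (SE 0.12). Without control replicate 1, Txndc11 was at 0.14 and Txndc2 at -0.09. In this list 0 genes had groups that did not overlap, beside 5.48% of all genes wholly below the controls and 3.53% wholly above.

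The other peroxiredoxins with sulfiredoxin and the sestrins had 3 positive differences among 6 measured and a median of 0.01. Groups that did not overlap were found for 0 of them, beside 5.48% of all genes wholly below and 3.53% wholly above. Prdx4, the peroxiredoxin of the endoplasmic reticulum, was at -0.30 (SE 0.13), with 98.9, 117 and 128 on Angpt2 shRNA-1 replicates 1, 2 and 3, against 121, 146 and 155 on control replicates 1, 2 and 3. Its differences within replicate numbers 1, 2 and 3 were -0.29, -0.32 and -0.28. With the replicate block the 95% interval was -0.50 to -0.10 (SE 0.09), without a call over all genes. Block intervals also excluded 0 for other listed genes, among them Glrx3 and Arrdc3. Sesn2, a stress-induced sestrin, was at 0.26 (SE 0.40) and at 0.77 without control replicate 1, and Sesn1 was at 0.19 (SE 0.10) and at 0.12 without that array. Clusters of Prdx1, Prdx5 and Prdx6 were not analysed here.

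The glutaredoxin branch, which uses glutathione for similar reductions, had 4 positive differences among 5 genes and a median of 0.16. Groups that did not overlap were found for 0 of them, beside 5.48% of all genes wholly below and 3.53% wholly above. Glrx3, an iron-sulfur glutaredoxin, was at 0.42 (SE 0.19), with 536, 576 and 322 on Angpt2 shRNA-1 replicates 1, 2 and 3, against 325, 366 and 347 on control replicates 1, 2 and 3. Angpt2 shRNA-1 replicate 3 lay below all controls while the other 2 lay above. Glrx, the cytosolic glutaredoxin, was at 0.18 (SE 0.16) and the mitochondrial Glrx5 at 0.16 (SE 0.12), with 0.00 and 0.03 without control replicate 1. On that array the 5 genes had a median deviation of -0.30.

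The list of thioredoxin clients was broad and took in each subunit of ribonucleotide reductase, a client enzyme. Of 8 measured, 4 were positive (median -0.03), while 3 lay wholly below the controls and 1 wholly above, beside 5.48% and 3.53% of all genes. As for the members, nothing is read from these counts. Rrm2b, a ribonucleotide reductase subunit that makes deoxynucleotides outside S phase, was at 258, 241 and 313 on Angpt2 shRNA-1 replicates 1, 2 and 3, against 398, 379 and 337 on control replicates 1, 2 and 3, a log2 difference of -0.46 (SE 0.12). The methionine sulfoxide reductase Msrb2, a mitochondrial enzyme, was at -0.19 (SE 0.09) and Map3k5, the kinase ASK1 that reduced thioredoxin holds inactive, at -0.09 (SE 0.08, named after its values were seen). Msra, which repairs the other stereoisomer of methionine sulfoxide, was at 0.20 (SE 0.10). The ribonucleotide reductase subunits Rrm1 and Rrm2 were at 0.06 (SE 0.11) and 0.01 (SE 0.10), named after their values were seen. Without control replicate 1 they were at -0.05 and -0.06.

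Of the relatives and regulators of Txnip, 0 reached 1.5 times the next array on control replicate 1, beside 100 of all 22180 genes. The arrestin-like gene Arrdc3 was at 1.21 times there. Of 11 measured, 5 were positive (median -0.05). None had groups that did not overlap, beside 5.48% of all genes wholly below and 3.53% wholly above. Arrdc3 was at -0.38 (SE 0.24), Mlxip, which encodes MondoA, at -0.13 (SE 0.09) and the dim Arrdc5 at -0.13 (SE 0.11). Without control replicate 1, Arrdc3 was at -0.18 and Arrdc5 at -0.07. Arrdc4, a relative of Txnip that also responds to glucose, was dim on all arrays, from 71.6 to 87.5, and was named after its values were seen.

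NRF2 regulators and targets were negative for 8 of 12 measured genes (median -0.05), with 1 wholly below the controls, the repressor gene Bach1 (-0.14, SE 0.09), and 0 above, beside 5.48% and 3.53% of all genes. Slc7a11, the cystine transporter, was at -0.61 (SE 0.58) and Hmox1, heme oxygenase, at -0.28 (SE 0.50), and both turned positive without control replicate 1, at 0.20 and 0.22. With Txnip and Aldh1l2 they make up the 4 genes, among 6 members and 76 listed genes, that stood apart on control replicate 1. Each was at least 1.5 times as bright there as on any other array, as were 100 of all 22180 genes. The lists were chosen with earlier results known, so nothing is read from this count. The ratios were 3.62 for Slc7a11, 2.10 for Aldh1l2, 1.82 for Txnip and 1.56 for Hmox1. Txnrd1, itself an NRF2 target, was at 0.93 times the brightest other array there.

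Of the genes that build selenoproteins, on which both reductases depend, 3 of 8 were positive (median -0.02), with 2 wholly above the controls and 1 wholly below, beside 3.53% and 5.48% of all genes. Secisbp2, which binds the selenocysteine insertion element, was at 0.22 (SE 0.09) and Pstk, which acts on the serine-loaded selenocysteine transfer RNA, at 0.20 (SE 0.08). Scly, a selenocysteine lyase, was at -0.19 (SE 0.09), and at -0.11 without control replicate 1.

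The list drawn up for NADPH supply in the matrix was broad, and 2 of its 7 genes were positive (median -0.05). None had groups that did not overlap, beside 5.48% of all genes wholly below and 3.53% wholly above. Aldh1l2, a mitochondrial folate enzyme, was at -0.54 (SE 0.50) and at 0.10 without control replicate 1. Me2, a malic enzyme, was at 0.16 (SE 0.15), and this rested on Angpt2 shRNA-1 replicate 3. Its differences within replicate numbers 1, 2 and 3 were -0.08, 0.03 and 0.53. Nnt, the transhydrogenase of the inner membrane, was at -0.09 (SE 0.11).

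**Figure D5:**
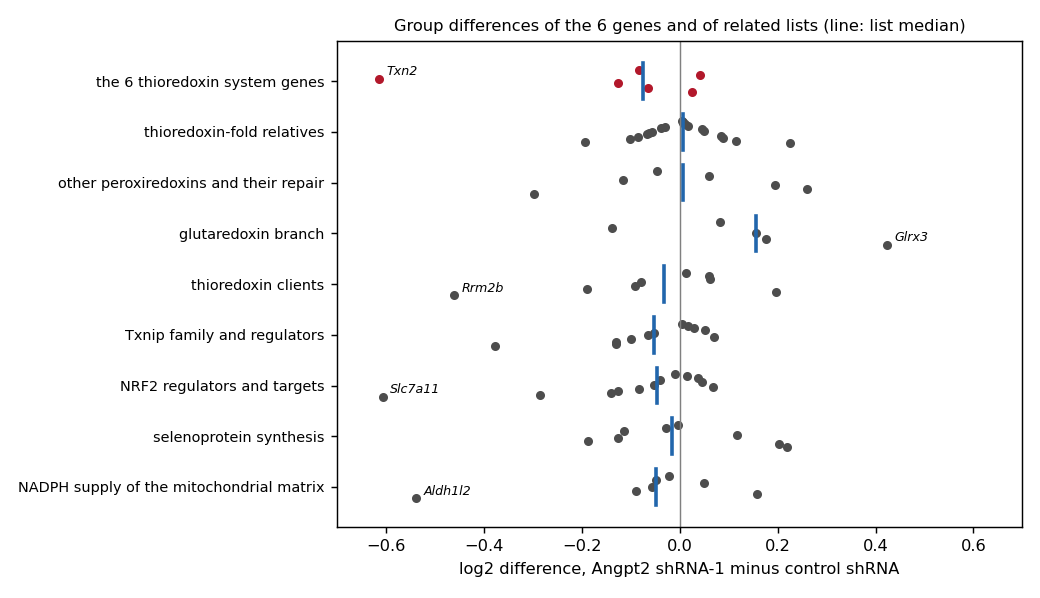
Log2 difference of Angpt2 shRNA-1 minus control (x axis) for the 6 thioredoxin system genes (red) and the measured genes of 8 related lists (grey), 1 point per gene, with list medians as blue lines and names beside points beyond 0.4 in size. Medians lie between -0.07 and 0.16, and 0 genes passed the limma test.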

How the data were processed

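The values were intensities per transcript cluster on a linear scale, as deposited by the authors, whose background correction and normalization are not given in the sources used here. Near-equal array medians are the basis for treating the arrays as already normalized. Per the labels, 100 ng of RNA was labelled for each array. The precision is limited by 3 arrays per group. Of 41345 clusters 23521 had 1 symbol, and each of 22180 genes was represented by its brightest cluster on average. Log2 values without a pseudocount were fitted in limma 3.58.1 under R 4.3.3 (lmFit, then eBayes). P-values were two-sided and adjusted across the 22180 genes by Benjamini-Hochberg, after the fit had been checked on simulated data.

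The members and lists were chosen with earlier results of these data known. Besides members and Angpt2, the text names up to 3 genes per list with the largest absolute difference and the 3 most alike genes per member. Deviations from group means correlated at 0.13, 0.21 and 0.14 between arrays with the same replicate number, and this check of the data alone led to their use as pairs, since the labels state no shared day. Alternatives were the replicate block, quantile normalization, median centring, averaging clusters, a pseudocount of 16, a filter on dim genes, trend and robust options, and leaving out each array.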

Additional observations from a re-analysis of the deposited data

How the results depend on the processing

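The count of genes called over the transcriptome was 0 and became 2 with the replicate block and 1 with trend and robust options, and it ran from 0 to 2 when single arrays were left out, at 1 without control replicate 1 and 2 without control replicate 2. The remaining alternatives gave 0. With the replicate block 0 members were called, as without it. Leaving out single arrays moved the log2 difference of Txn2 between -0.77 and -0.39 and the compartment difference between -0.24 and -0.14. Ranges were -0.15 to 0.18 for Txn1, -0.10 to 0.17 for Txnrd2, -0.34 to 0.25 for Txnip, -0.11 to -0.02 for Txnrd1 and -0.13 to -0.03 for Prdx3. Under quantile normalization, median centring and the pseudocount each stayed within its spread between replicates, with Txn2 between -0.61 and -0.58. Averaging clusters could not change a member, since each had 1 cluster with a single symbol. Median centring could not change the compartment difference, since a shift of a whole array cancels in it. The table has no detection calls, so dim signals cannot be told from background.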
